A study of Mus musculus with 6 samples.

Results

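The genes described here are 44 enzymes, carriers and kinases of glycolysis, pyruvate handling, the TCA cycle and the shuttles that carry reducing power into mitochondria. They were taken by symbol from a list of the pathway, out of 55421 genes in the count tables, and all 44 were found and passed the filter on low counts. The series holds 6 RNA-seq libraries of mouse pancreatic islets, the hormone-secreting cell clusters of the pancreas, 3 given the ligand insB:9-23 and 3 given vehicle. The name insB:9-23 is that of a stretch of the insulin B chain. Both groups are labelled wild type (WT) on the C57BL/6 strain. The labels give no age, dose, route or duration, and do not say whether a library comes from 1 mouse or a pool, or whether mice or isolated islets were treated. The p-values below therefore measure library-to-library spread, part or all of which may be technical. The question, as far as the title gives it, was on which islet genes the ligand acts.

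Glycolysis splits glucose into pyruvate in the cytosol. In beta cells most of that pyruvate enters mitochondria, where pyruvate dehydrogenase and the TCA cycle oxidise it, and the ATP made from it closes potassium channels and starts insulin release. Beta cells are known for a low level of lactate dehydrogenase A and of the lactate carrier, and for active malate-aspartate and glycerol-3-phosphate shuttles, which return cytosolic NADH to NAD.

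Total counts lay between 52052808 and 58880189 per library. Values are CPM, that is counts scaled to library size, on library sizes scaled by edgeR's TMM method unless another scale is named, and 3 counts correspond to 0.0475 to 0.0655 CPM. The scaling factor was lowest in insB:9-23 replicate 3, at 0.806, while the remaining 5 libraries had 1.004 to 1.08. Beta cell markers (12 genes, 1 of them at 0 in every library) took 12%, 13.9% and 9.63% of counts in insB:9-23 libraries 1 to 3, against 13.9%, 12.2% and 12.1% in vehicle libraries 1 to 3. Beta cell genes were thus abundant in all 6 libraries. Acinar markers (18 genes, none at 0), which stand for the exocrine cells around islets, took 18.6%, 16.6% and 25.0% of counts in insB:9-23 libraries, against 15.1%, 16.6% and 17.5% in vehicle libraries. B and plasma cell markers took 0.00644% in insB:9-23 replicate 2 and at most 0.00124% in the other 5. In whole islets, fewer cells of a type and less RNA per cell cannot be told apart. The part that cell makeup has in any member's level was not tested.

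None of the 44 genes passed the test between insB:9-23 and vehicle islets. edgeR's quasi-likelihood test with Benjamini-Hochberg adjustment over 17016 genes called 0 members at an adjusted p below 0.05, where 0.0823% of all genes tested (14) were called, 0.0294% of them higher and 0.0529% lower in insB:9-23, and DESeq2 and limma-voom also called 0 members. At an unadjusted p below 0.05 edgeR again counted 0 members, where 5.55% of all genes (944) lay, and the lowest unadjusted p among members was 0.0557, for Mpc2. The groups did not overlap for 6 members (13.6%), where 13.5% of all genes did not overlap. Of these, 4 lay higher in the insB:9-23 libraries (Hk2, Mpc2, Pdhb and Pdk4), against a background of 6.4%, and 2 lay lower (Pfkp and Mdh2), against 7.12%. The share of members without overlap was thus near that of the whole table.

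The estimates were close to 0 for most members. The log2 fold change, insB:9-23 over vehicle, was above 0 for 19 members and below 0 for 25, with a median of -0.015, beside 0.0087 over all genes tested. It lay within 0.2 of 0 for 35 members (79.5%), where 54.4% of all genes, and 69.7% of the 10277 genes averaging at least 5 CPM, did so. For 31 of 44 members the 95% interval lay inside a 1.5-fold change in either direction, as it did for 6713 of 17016 genes and for 6497 of the 10277. These 31 include all 8 genes of upper glycolysis and all 11 of the TCA cycle, but 3 of the 9 that handle pyruvate.

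**Figure D1:**
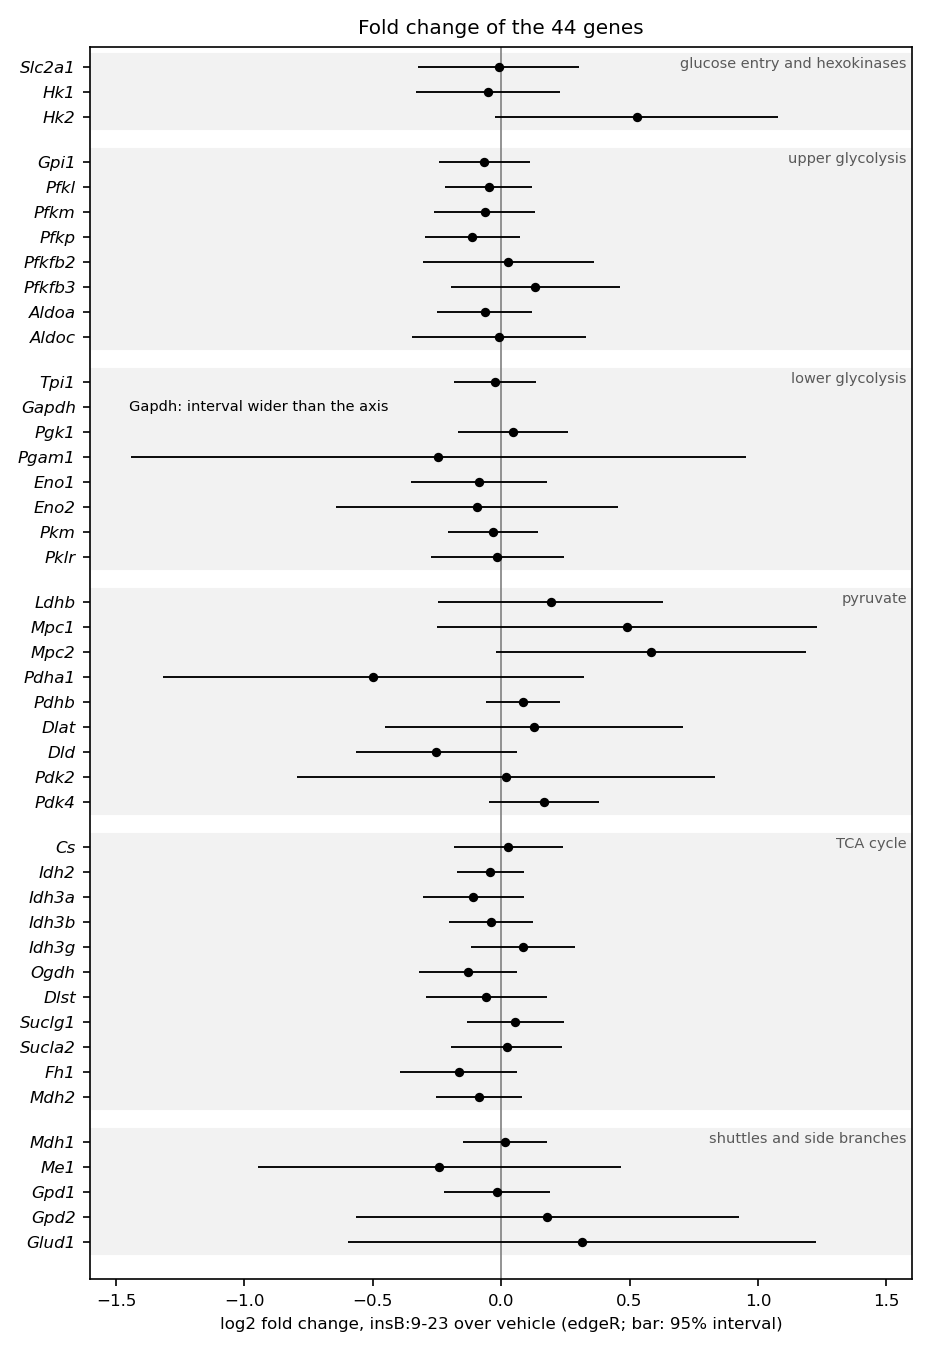
Log2 fold change of each member, insB:9-23 over vehicle, by step of the pathway, with bars for the 95% interval from edgeR's quasi-likelihood fit over 3 libraries a group. Most points sit within 0.2 of the line at 0. The intervals are short for upper glycolysis and the TCA cycle and long for Pgam1, Glud1 and several pyruvate genes, and Gapdh lies beyond the axis, with its fold and interval given in the text.

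Glucose enters through transporters, and hexokinases trap it as glucose 6-phosphate. Slc2a1, a glucose transporter of most cell types, was at 9.66, 12.3 and 10.8 CPM in insB:9-23 libraries, against 11.4, 10.5 and 11.1 CPM in vehicle libraries, and the groups overlap. Hk1, a high-affinity hexokinase, was at 7.92, 8.41 and 8.65 CPM in insB:9-23 libraries, against 8.11, 8.96 and 8.83 CPM in vehicle libraries, which also overlap.

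Hk2, the high-affinity hexokinase of muscle and fat, was low in every library (ENSMUSG00000000628, chromosome 6, 82725025 to 82774454, minus strand, GRCm38). It was at 2.36, 2.29 and 1.90 CPM in insB:9-23 libraries, against 1.62, 1.28 and 1.65 CPM in vehicle libraries. Each insB:9-23 library lay above each vehicle library. The log2 fold change was 0.53 ± 0.23 (SE, n = 3 each), with a 95% interval of -0.025 to 1.08 and an edgeR adjusted p of 0.88. Per kilobase of exon, Hk2 made up 29.8%, 28.1% and 23.9% of the summed Hk1 and Hk2 level in insB:9-23 libraries, against 22.2%, 17.0% and 21.1% in vehicle libraries. This share, which does not depend on the scaling between libraries, averaged 27.3% ± 3.04 in insB:9-23 libraries and 20.1% ± 2.73 in vehicle libraries (SD, n = 3 each). An exact two-sided permutation test gave p = 0.1, the smallest it can give with 3 libraries against 3, and 0.8 after Benjamini-Hochberg adjustment over the 12 isozyme families compared. The acinar share was also higher on average in the insB:9-23 libraries, highest in replicate 3, where Hk2 was lowest of that group. The part of acinar RNA in the Hk2 level was not tested.

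Upper glycolysis carries glucose 6-phosphate to triose phosphates. Gpi1, the phosphoglucose isomerase, was at 107, 99.5 and 114 CPM in insB:9-23 libraries, against 116, 111 and 108 CPM in vehicle libraries. Phosphofructokinase, the committed step, has a muscle, a liver and a platelet isoform, encoded by Pfkm, Pfkl and Pfkp. Pfkm was at 56.6, 50.6 and 51.8 CPM in insB:9-23 libraries, against 59.1, 54.4 and 52.8 CPM in vehicle libraries. Pfkl was at 46.0, 43.6 and 44.5 CPM in insB:9-23 libraries, against 48.4, 45.6 and 44.7 CPM in vehicle libraries. For both isoforms the groups overlap. Pfkp was at 22.4, 23.1 and 23.3 CPM in insB:9-23 libraries, against 24.4, 25.8 and 24.1 CPM in vehicle libraries. All 3 insB:9-23 libraries lay below all 3 vehicle libraries, by a log2 fold change of -0.11 ± 0.08, with an edgeR adjusted p of 0.89. Per kilobase, Pfkm was the highest of the 3 isoforms in all 6 libraries and made up 65.3% ± 0.960 of their sum in insB:9-23 libraries and 65.4% ± 0.623 in vehicle libraries. This share rests on merged exon lengths of 3340 bases for Pfkm, 6675 for Pfkl and 13401 for Pfkp, though their coding lengths are 2340, 2340 and 2352. In CPM, Pfkm averaged 53.0 and Pfkl 44.7 in insB:9-23 libraries, and 55.4 and 46.2 in vehicle libraries.

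Of the enzymes around phosphofructokinase, Pfkfb2 and Pfkfb3 make and remove fructose 2,6-bisphosphate, its activator. Pfkfb2 was at 109, 107 and 148 CPM in insB:9-23 libraries, against 117, 118 and 122 CPM in vehicle libraries, and its highest library was insB:9-23 replicate 3, the one with the highest acinar share. Pfkfb3 was at 10.4, 8.07 and 9.55 CPM in insB:9-23 libraries, against 8.30, 8.61 and 8.64 CPM in vehicle libraries. Per kilobase it made up 6.99% ± 1.31 of the pair in insB:9-23 libraries and 6.42% ± 0.109 in vehicle libraries. Aldolase splits the phosphorylated fructose, and its A form exceeded its C form throughout. Aldoa was at 299, 322 and 291 CPM in insB:9-23 libraries, against 338, 294 and 321 CPM in vehicle libraries. Aldoc was at 10.9, 11.97 and 9.66 CPM in insB:9-23 libraries, against 12.2, 9.89 and 10.7 CPM in vehicle libraries. Per kilobase Aldoc made up 3.08% ± 0.179 of the pair in insB:9-23 libraries and 2.97% ± 0.123 in vehicle libraries. The 8 genes of upper glycolysis summed to 673 ± 16.1 CPM in insB:9-23 libraries and 694 ± 28.4 CPM in vehicle libraries, a difference smaller than the spread of the vehicle libraries.

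**Figure D2:**
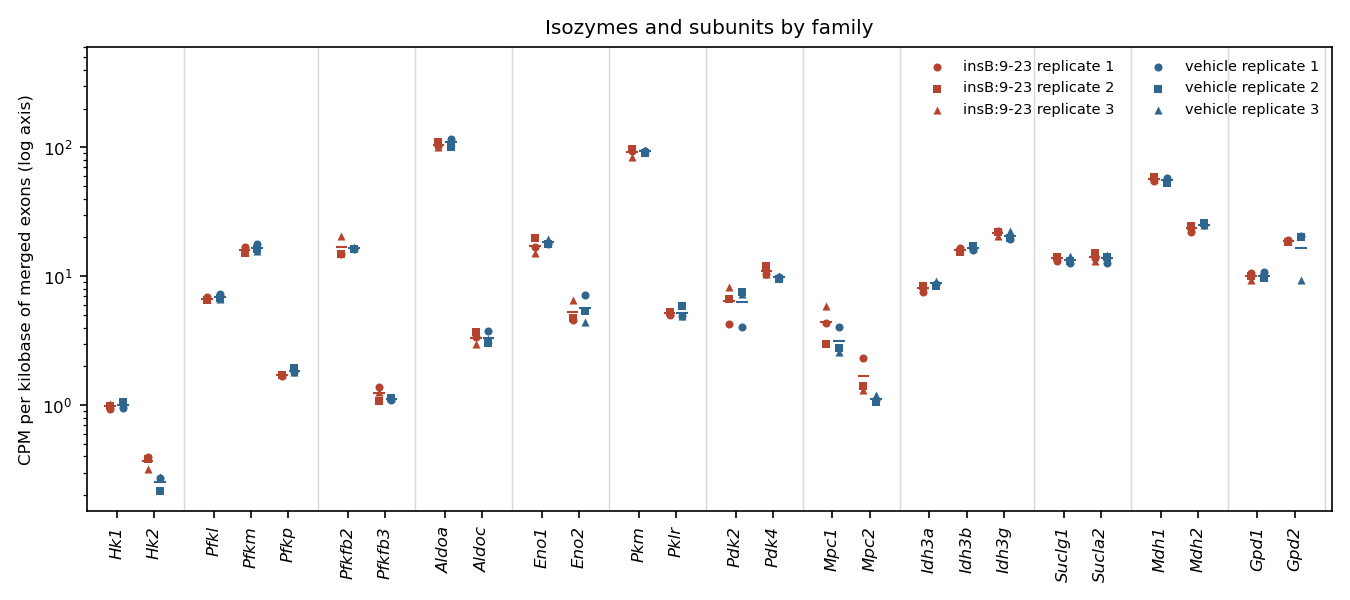
Levels of 26 genes in 12 isozyme or subunit families in each library, as CPM per kilobase of merged exon on a log axis, with insB:9-23 libraries left of vehicle libraries within each gene and a line at each group's mean. The order of the isozymes within a family is set by large gaps for aldolase and pyruvate kinase. For phosphofructokinase the gap between Pfkm and Pfkl rests largely on merged exon length, 3340 against 6675 bases. The gap between Mpc1 and Mpc2 also rests on merged exon length, 2082 against 7344 bases. Only for Hk2 does the share of the family lie apart between the groups.

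Lower glycolysis held the member that varied most between libraries, Gapdh. Many of these enzymes have retrocopies, which are genomic copies of the spliced mRNA, mostly annotated as processed pseudogenes. Of the 44 members, 18 have at least 1 annotated retrocopy, taken as a gene that aligns to the coding sequence over at least 200 bases at 80% identity or more and is a pseudogene or has 1 exon. In 8 of the 18, a retrocopy held at least 10 counts in some library. A stretch of 50 coding bases that also occurs in another annotated gene was found for 15 members, and 29 share none, with genes that overlap the member's own locus left out. Among the genes left out is Gm29427, which overlaps Pfkfb2 on the same strand. It matches Pfkfb2 at 100% over 1098 coding bases and held at most 25 counts in a library.

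Gapdh, glyceraldehyde-3-phosphate dehydrogenase (ENSMUSG00000057666), lies on chromosome 6 from 125161715 to 125166467 on the minus strand (GRCm38). It has 330 annotated retrocopies, 24 of them at 99% identity or more, and 94.2% of its 50-base coding stretches occur in another gene. The windows below show how little separates the gene from 3 of its most counted copies. Positions run from 1 at the first base of the longest annotated Gapdh coding sequence (GENCODE M21), each window is written 5′ to 3′ on the coding strand, and the capital marks the 1 base that differs.
Gapdh, bases 641 to 681: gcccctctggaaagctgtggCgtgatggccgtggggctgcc
Gm2606, chromosome 15 (C661T): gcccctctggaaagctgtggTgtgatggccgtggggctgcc
Gapdh, bases 562 to 602: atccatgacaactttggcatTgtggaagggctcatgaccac
Gm12033, chromosome 11 (T582C): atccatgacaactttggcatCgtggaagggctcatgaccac
Gapdh, bases 815 to 855: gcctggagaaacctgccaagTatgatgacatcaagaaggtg
Gm14760, chromosome X (T835G): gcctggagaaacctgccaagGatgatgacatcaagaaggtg
These are the single differences over 999 bases compared for each of these 3 copies, and Gm10359 on chromosome 5 and Gm12671 on chromosome 4 had 0.

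Gapdh itself was at 0.00766 to 2.13 CPM per kilobase of exon over the 6 libraries, where Tpi1 was at 26.03 to 28.6 and Pgk1 at 27.6 to 33.1 on the same scale. Its counts were 5, 495 and 103 in insB:9-23 libraries 1 to 3, against 2, 101 and 61 in vehicle libraries 1 to 3. The lowest library was vehicle replicate 1 and the highest insB:9-23 replicate 2, a ratio of 278 in CPM, and the groups overlap. The log2 fold change of 1.99 ± 1.67 had a 95% interval of -2.15 to 6.14. Without insB:9-23 replicate 2 it was 0.32.

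The copies held most of the counts in the family. Summed over the 330 copies, counts were 1728, 2050 and 700 in insB:9-23 libraries, against 1926, 2375 and 1110 in vehicle libraries. They made up 99.7%, 80.6% and 87.2% of the gene and its copies in insB:9-23 libraries, against 99.9%, 95.9% and 94.8% in vehicle libraries. Of the 330 copies 94 held any count and 27 held at least 10 in some library, and 20 of these 27 were at 0 in another library. Gm2606 held 771 counts in vehicle replicate 2 and 0 in the other 5 libraries. Gm12033 held 0, 782 and 0 counts in insB:9-23 libraries, against 0, 0 and 243 in vehicle libraries. Each of these copies thus held all its counts in 1 or 2 libraries. Gm12671 held 0, 218 and 0 counts in insB:9-23 libraries, against 402, 286 and 0 in vehicle libraries. Gm14760 held 152, 227 and 0 counts in insB:9-23 libraries, against 382, 294 and 0 in vehicle libraries. The 2 libraries at 0 were the same for both copies, insB:9-23 replicate 3 and vehicle replicate 3. Gm10359, the most counted copy, was present throughout, with 901, 215 and 250 counts in insB:9-23 libraries, against 367, 325 and 304 in vehicle libraries. Taken as 1 feature, Gapdh and its copies came to 29.6, 45.3 and 17.5 CPM in insB:9-23 libraries, against 30.5, 39.7 and 21.9 CPM in vehicle libraries. On that sum the log2 fold change was 0.0041, with an edgeR adjusted p of 0.998. The sources used here do not say how the counting treated a read that matches several genes.

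**Figure D3:**
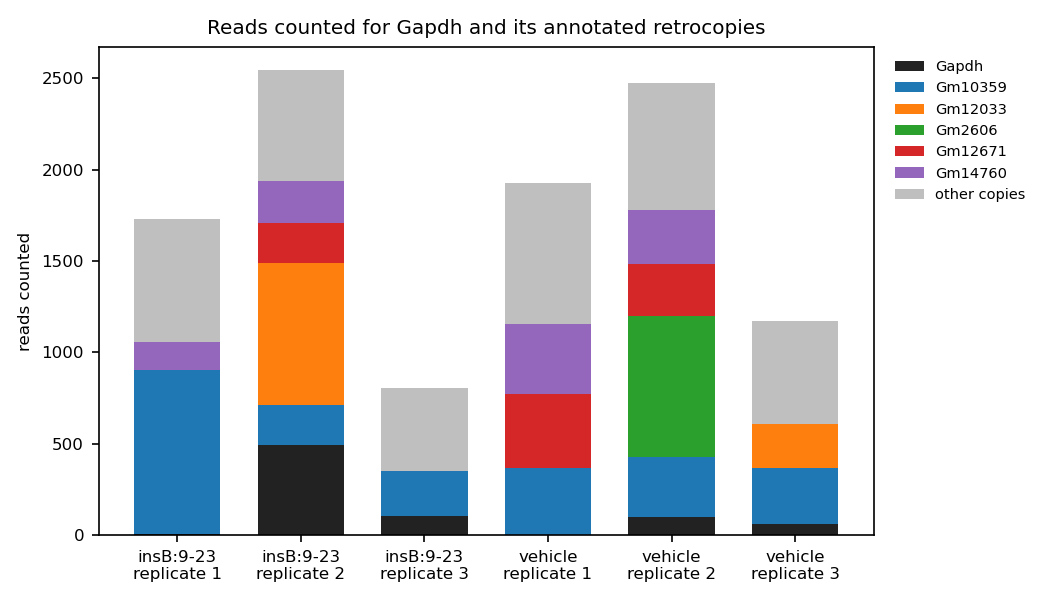
Stacked counts of Gapdh (black), its 5 most counted retrocopies (colours) and its other retrocopies (grey) in each of the 6 libraries, with insB:9-23 libraries left of vehicle libraries. Gm2606 and Gm12033 hold all their counts in 1 or 2 libraries, while the sum of the gene and its copies varies less.

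Pgam1, phosphoglycerate mutase, was the other gene of lower glycolysis whose highest library was at least 2 times its lowest (ENSMUSG00000011752, chromosome 19, 41911923 to 41918660, plus strand). It has 5 annotated retrocopies, and Pgam1-ps2 on chromosome 7 matches its coding sequence at 762 of 762 bases. The start of the coding sequence, shown here because it is the same in both, reads as follows, with no capital since no base differs.
Pgam1, coding bases 1 to 60: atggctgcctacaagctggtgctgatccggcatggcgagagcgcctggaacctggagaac
Pgam1-ps2, chromosome 7: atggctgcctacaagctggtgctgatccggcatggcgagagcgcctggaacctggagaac
Pgam1 was at 91.2, 86.3 and 31.9 CPM in insB:9-23 libraries, against 99.5, 102 and 46.9 CPM in vehicle libraries. The third library of each group was low and the other 4 lay close together, so the groups overlap, and the log2 fold change was -0.25 ± 0.48. It was 0.10 without insB:9-23 replicate 3 and -0.53 without vehicle replicate 3. Unlike those of Gapdh, the copies of Pgam1 held at most 2 counts in any library. The 2 libraries low for Pgam1 are the ones in which the Gapdh copies Gm12671 and Gm14760 were at 0.

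A near-identical copy did not go with an unsteady count in every case. Pgk1, phosphoglycerate kinase, has 7 annotated retrocopies, 2 of them at 99% identity or more, and every 50-base stretch of its coding sequence occurs in another gene. Its copies held 0 counts, and it was at 64.3, 74.3 and 62.7 CPM in insB:9-23 libraries, against 66.0, 62.0 and 67.1 CPM in vehicle libraries, a ratio of 1.20 between highest and lowest. Tpi1, triose phosphate isomerase, with 7 retrocopies, was at 71.7, 76.2 and 76.2 CPM in insB:9-23 libraries, against 77.1, 72.2 and 78.7 CPM in vehicle libraries. Both were thus level across the 6 libraries. The other members with a retrocopy of at least 10 counts in some library were Eno1, Pkm, Gpi1, Ldhb, Pdhb, Me1 and Glud1.

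Enolase and pyruvate kinase end the glycolytic chain. Eno1, the enolase of most tissues, was at 91.2, 106 and 81.1 CPM in insB:9-23 libraries, against 95.3, 95.7 and 104 CPM in vehicle libraries. Its retrocopy Gm4735, at 99.6% identity, held 368, 0 and 239 counts in insB:9-23 libraries, against 317, 0 and 0 in vehicle libraries, which is a small part of the 3714 to 6023 counts of Eno1. Eno1b, a close relative with 2 exons at 99.4% identity, held 612, 536 and 411 counts in insB:9-23 libraries, against 569, 524 and 489 in vehicle libraries. Eno2, the neuronal and endocrine enolase, was at 21.7, 22.2 and 30.6 CPM in insB:9-23 libraries, against 33.5, 25.1 and 20.7 CPM in vehicle libraries, and neither group was above the other. Per kilobase it made up 23.6% ± 5.72 of the pair in insB:9-23 libraries and 23.4% ± 5.09 in vehicle libraries. Pkm, the pyruvate kinase gene of most tissues, was at 470, 482 and 419 CPM in insB:9-23 libraries, against 469, 454 and 479 CPM in vehicle libraries. Pklr, the liver and red cell form, was at 16.2, 17.0 and 17.0 CPM in insB:9-23 libraries, against 15.9, 18.9 and 15.9 CPM in vehicle libraries. Per kilobase of exon, Aldoa was the highest of all members, with a mean of 104 CPM per kilobase in insB:9-23 libraries and 109 in vehicle libraries. Pkm came next, with 91.4 in insB:9-23 libraries and 93.4 in vehicle libraries. This order rests on merged exon lengths of 2911 bases for Aldoa and 5001 for Pkm, though their coding lengths are 1254 and 1593. In CPM the order was the reverse. Pkm averaged 457 and Aldoa 304 in insB:9-23 libraries, and 467 and 318 in vehicle libraries. Pklr made up 5.37% ± 0.453 of the per-kilobase sum of Pkm and Pklr in insB:9-23 libraries and 5.30% ± 0.639 in vehicle libraries.

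The genes that handle pyruvate were the least even. Their median ratio of highest to lowest library was 1.81, close to the 1.76 of the 5 shuttle and side-branch genes, against 1.18 for the TCA cycle genes. Ldhb, the lactate dehydrogenase subunit of heart, was at 12.7, 9.60 and 14.9 CPM in insB:9-23 libraries, against 10.1, 11.1 and 11.3 CPM in vehicle libraries, and the groups overlap. Mpc1 and Mpc2 together form the carrier that brings pyruvate into mitochondria. Mpc2 (ENSMUSG00000026568, chromosome 1, 165460637 to 165481214, plus strand) was at 17.2, 10.3 and 9.57 CPM in insB:9-23 libraries, against 8.11, 7.79 and 8.86 CPM in vehicle libraries. All 3 insB:9-23 libraries lay above all 3 vehicle libraries, with replicate 1 well above the other 2. Its log2 fold change of 0.58 ± 0.25 was the largest of any member but Gapdh, with a 95% interval of -0.020 to 1.19 and an edgeR adjusted p of 0.88, and it was 0.27 without insB:9-23 replicate 1. Mpc1 was at 9.07, 6.26 and 12.3 CPM in insB:9-23 libraries, against 8.45, 5.75 and 5.42 CPM in vehicle libraries. Here replicate 3 was the highest insB:9-23 library and the groups overlap, with a log2 fold change of 0.49 ± 0.30 that was 0.23 without that replicate. The carrier subunits thus had their highest values in different libraries. Mpc2 made up 28.3% ± 8.97 of their per-kilobase sum in insB:9-23 libraries and 26.9% ± 5.21 in vehicle libraries. This share rests on merged exon lengths of 7344 bases for Mpc2 and 2082 for Mpc1, though their coding lengths are 381 and 501. In CPM, Mpc2 lay above Mpc1 in insB:9-23 replicates 1 and 2 and in vehicle replicates 2 and 3. It lay below Mpc1 in insB:9-23 replicate 3 and vehicle replicate 1. Mpc1 also has the retrocopy Mpc1-ps, identical over 258 aligned bases, which held 0 counts.

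The pyruvate dehydrogenase complex joins an E1 of Pdha1 and Pdhb products to an E2, Dlat, and an E3, Dld, and turns pyruvate into acetyl-CoA. Pdha1 was at 43.95, 44.4 and 45.4 CPM in insB:9-23 libraries, against 45.0, 45.1 and 98.8 CPM in vehicle libraries. Vehicle replicate 3 alone stood apart, at more than 2 times the rest, and the log2 fold change of -0.50 ± 0.33 was -0.0165 without it. Pdha1 (ENSMUSG00000031299) lies on chromosome X from 160122209 to 160138413 on the minus strand, where Map3k15 overlaps it on the opposite strand, and the sources used here do not give the strand setting of the counting. Such overlap is not particular to Pdha1, since another gene overlaps 26 of the 44 members. Tpi1, overlapped by Spsb2 on the opposite strand, had a ratio of highest to lowest library of 1.10. The part of overlap in the step of Pdha1 was not tested. Pdhb, the partner subunit, did not share that step, with 61.1, 64.4 and 61.2 CPM in insB:9-23 libraries, against 58.5, 59.1 and 58.3 CPM in vehicle libraries. The groups of Pdhb did not overlap, though the log2 fold change was 0.086 ± 0.06, and it was -0.064 when libraries were scaled by their totals alone. Dlat was at 46.5, 44.04 and 46.9 CPM in insB:9-23 libraries, against 49.2, 27.2 and 49.2 CPM in vehicle libraries. Its low library was vehicle replicate 2, without which the log2 fold change was -0.11 in place of 0.13. Dld, which also serves the oxoglutarate dehydrogenase complex, was at 58.5, 60.3 and 79.1 CPM in insB:9-23 libraries, against 80.2, 75.9 and 79.6 CPM in vehicle libraries. Of its insB:9-23 libraries 2 lay below the vehicle range and 1 within it. The log2 fold change was -0.25 ± 0.13, with an edgeR adjusted p of 0.88, and it was -0.40 without insB:9-23 replicate 3.

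Kinases of the PDK family phosphorylate the E1 subunit and switch the complex off. Pdk4, the fasting-induced kinase, was at 36.7, 42.5 and 36.5 CPM in insB:9-23 libraries, against 34.5, 33.6 and 35.1 CPM in vehicle libraries. Its groups did not overlap, with a log2 fold change of 0.17 ± 0.09 and an edgeR adjusted p of 0.88. Pdk2 was at 13.6, 21.0 and 25.9 CPM in insB:9-23 libraries, against 12.8, 24.0 and 22.8 CPM in vehicle libraries, so replicate 1 was the low library in both groups. Per kilobase Pdk4 made up 63.8% ± 7.47 of the pair in insB:9-23 libraries and 61.6% ± 8.14 in vehicle libraries.

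**Figure D4:**
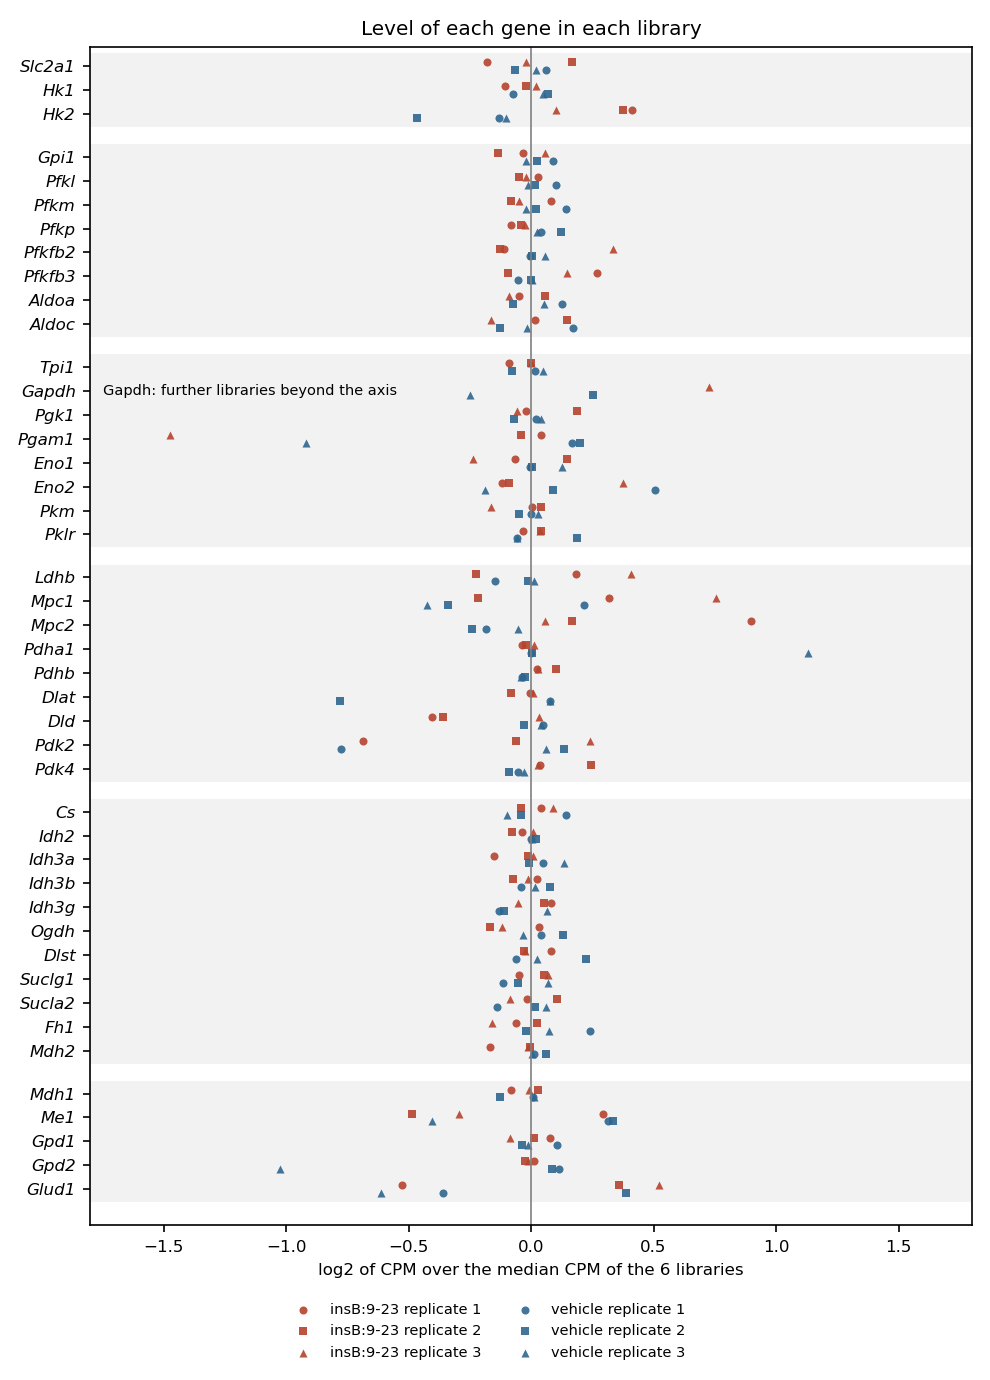
Log2 ratio of each member's CPM in each library to its median CPM over the 6 libraries, with symbols for the replicates and, within each row, insB:9-23 libraries above vehicle libraries. Some Gapdh libraries lie beyond the axis. Pdha1 is high only in vehicle replicate 3, Gpd2 is low only there, Dlat is low only in vehicle replicate 2, and Pgam1 is low in replicate 3 of both groups, while the rows of the TCA cycle are nearly flat.

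The TCA cycle genes were even, with a median ratio of highest to lowest library of 1.18, beside 1.17 for upper glycolysis. Cs, citrate synthase, was at 64.96, 61.4 and 67.3 CPM in insB:9-23 libraries, against 69.7, 61.3 and 59.02 CPM in vehicle libraries, and the groups overlap. Idh2, the NADP-linked mitochondrial isocitrate dehydrogenase, was the steadiest of all 44 members, with 115, 112 and 119 CPM in insB:9-23 libraries, against 118, 120 and 118 CPM in vehicle libraries, a ratio of 1.07 between highest and lowest. The NAD-linked enzyme has a catalytic subunit, Idh3a, and regulatory subunits, Idh3b and Idh3g. Idh3a was at 38.6, 42.4 and 43.0 CPM in insB:9-23 libraries, against 44.2, 42.5 and 46.9 CPM in vehicle libraries. Idh3b was at 56.8, 53.1 and 55.3 CPM in insB:9-23 libraries, against 54.3, 59.0 and 56.5 CPM in vehicle libraries. Idh3g was at 61.0, 59.8 and 55.6 CPM in insB:9-23 libraries, against 52.6, 53.4 and 60.3 CPM in vehicle libraries. The groups overlap for all 3 subunits. Per kilobase Idh3g was the highest and Idh3a the lowest in every library. Merged exon lengths are 2701 bases for Idh3g, 3422 for Idh3b and 5072 for Idh3a, though their coding lengths are 1179, 1152 and 1152. In CPM Idh3a was also the lowest in every library, but Idh3b lay above Idh3g in vehicle replicates 1 and 2. Idh3a made up 17.7% ± 1.30 of the sum in insB:9-23 libraries and 19.2% ± 0.669 in vehicle libraries, with p = 0.2 in an exact two-sided permutation test and 0.8 after adjustment over the 12 families.

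Further round the cycle, the ratio of highest to lowest library went up to 1.32, for Fh1. Ogdh, the E1 of oxoglutarate dehydrogenase, averaged 159 ± 11.5 CPM in insB:9-23 libraries and 174 ± 9.90 CPM in vehicle libraries (SD, n = 3 each), and Dlst, its E2, averaged 46.2 ± 2.001 CPM in insB:9-23 libraries and 48.1 ± 4.998 CPM in vehicle libraries. Suclg1 encodes the shared subunit of succinyl-CoA ligase and Sucla2 the subunit that makes it ATP-forming. Suclg1 was at 60.8, 65.3 and 66.2 CPM in insB:9-23 libraries, against 58.2, 60.7 and 66.1 CPM in vehicle libraries. Sucla2 was at 55.2, 59.99 and 52.6 CPM in insB:9-23 libraries, against 50.6, 56.5 and 58.2 CPM in vehicle libraries. Sucla2 was 50.2% ± 2.02 of the pair per kilobase in insB:9-23 libraries and 50.8% ± 0.887 in vehicle libraries, so the subunits stood near equal levels in both groups. Fh1, fumarase, was at 61.6, 65.3 and 57.6 CPM in insB:9-23 libraries, against 75.9, 63.3 and 67.7 CPM in vehicle libraries, and the groups overlap. Mdh2, the mitochondrial malate dehydrogenase, was at 78.3, 87.8 and 87.2 CPM in insB:9-23 libraries, against 88.7, 91.8 and 88.2 CPM in vehicle libraries. Its insB:9-23 libraries all lay below the vehicle libraries, 2 of them narrowly, with a log2 fold change of -0.086 ± 0.07.

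The 11 TCA cycle genes summed to 812, 802 and 803 CPM in insB:9-23 libraries, against 829, 846 and 832 CPM in vehicle libraries. The sums did not overlap and averaged 806 ± 5.73 CPM in insB:9-23 libraries and 836 ± 9.06 CPM in vehicle libraries. The log2 ratio of the means was -0.0525, and no p is given for a sum over chosen genes. Scaled by library totals alone, where the median of all genes was -0.145, it was -0.20. The sums of every other step of the pathway overlapped between the groups. On TMM scaling their log2 ratios were -0.0454 for upper glycolysis, -0.0474 for lower glycolysis and -0.0488 for the pyruvate genes, near that of the TCA cycle. The ratio was 0.0201 for glucose entry and hexokinases and 0.118 for the shuttle and side-branch genes.

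The shuttles return reducing equivalents from glycolysis to mitochondria. Mdh1, the cytosolic malate dehydrogenase, was at 139, 151 and 147 CPM in insB:9-23 libraries, against 148, 135 and 149 CPM in vehicle libraries. Per kilobase Mdh2 made up 29.5% ± 0.582 of the 2 malate dehydrogenases in insB:9-23 libraries and 31.0% ± 1.65 in vehicle libraries. Gpd1, the cytosolic glycerol-3-phosphate dehydrogenase, was at 31.2, 29.8 and 27.9 CPM in insB:9-23 libraries, against 31.8, 28.8 and 29.3 CPM in vehicle libraries. Neither cytosolic enzyme separated the groups. Gpd2, its mitochondrial partner, was at 125, 122 and 123 CPM in insB:9-23 libraries, against 134, 131 and 60.8 CPM in vehicle libraries. Vehicle replicate 3 was again the library apart, here low, and the log2 fold change of 0.18 ± 0.30 was -0.11 without it. Me1, the cytosolic malic enzyme, was at 15.2, 8.84 and 10.1 CPM in insB:9-23 libraries, against 15.4, 15.6 and 9.35 CPM in vehicle libraries. Glud1, the glutamate dehydrogenase that feeds the cycle from glutamate, was at 55.9, 103 and 116 CPM in insB:9-23 libraries, against 62.8, 105 and 52.7 CPM in vehicle libraries. Both genes had high and low libraries in each group, and Glud1 had 3 libraries at 52.7 to 62.8 CPM and 3 at 103 to 116 CPM, with a log2 fold change of 0.32 ± 0.37.

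Between libraries of the same group, some members differed more than between the groups. Over all members the median ratio of the highest to the lowest library was 1.23, beside 1.70 over all genes tested and 1.38 over genes averaging at least 5 CPM. The ratio reached 2 in 8 members, and in 7 of the 42 members averaging at least 5 CPM (16.7%), where 19.4% of such genes reached it. The 8 were Gapdh, Pgam1, Mpc1, Pdha1, Mpc2, Gpd2, Glud1 and Pdk2. They ranged from genes that share most of their sequence to genes that share none. With overlapping genes left out, shared 50-base stretches made up 94.2% of the coding sequence in Gapdh, 100% in Pgam1, 46.2% in Mpc1, 8.80% in Glud1 and 1.16% in Pdha1, and none in Mpc2, Gpd2 and Pdk2. Their highest library was insB:9-23 replicate 1 for Mpc2, insB:9-23 replicate 2 for Gapdh and insB:9-23 replicate 3 for Mpc1, Glud1 and Pdk2. It was vehicle replicate 1 for Gpd2, vehicle replicate 2 for Pgam1 and vehicle replicate 3 for Pdha1. The highest values of the 8 thus fell in all 6 libraries.

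**Figure D5:**
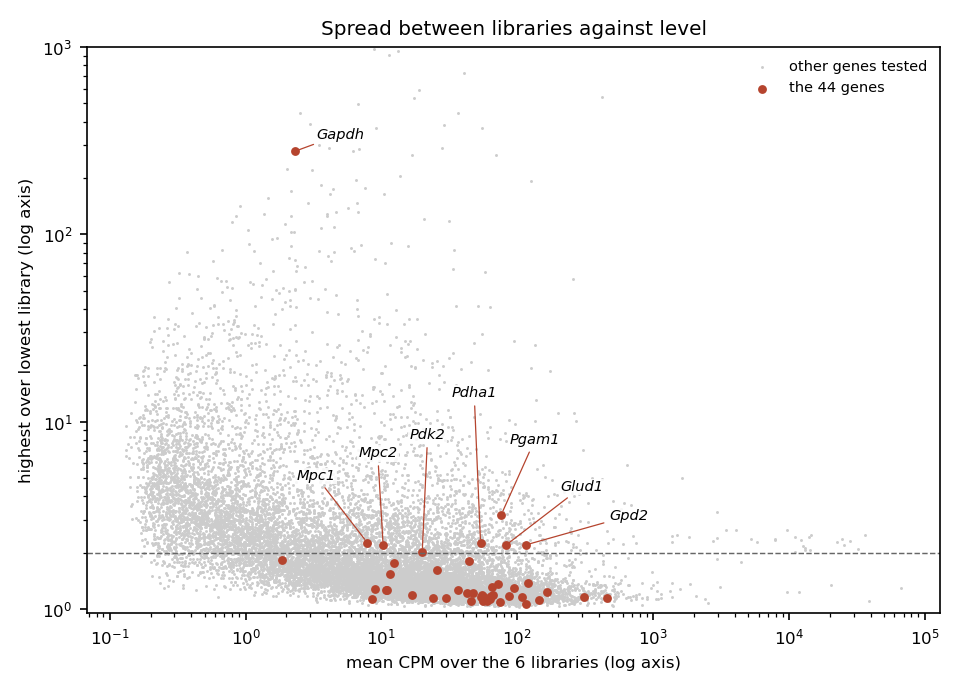
Ratio of the highest to the lowest of the 6 libraries against mean CPM, both on log axes, for the 44 members over all genes tested. Most members lie low in the cloud for their level, Gapdh is far above it with a ratio of 278, and the 8 members at a ratio of 2 or more are named. Genes with a ratio above the top of the axis, or with a library at 0, are not drawn.

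A list of 51 further genes of central carbon metabolism was read beside the members, and 50 passed the filter on low counts. edgeR, DESeq2 and limma-voom each called 0 of the 50, and by edgeR 2 lay at an unadjusted p below 0.05. Of the 50, 23 had a log2 fold change above 0 and 27 below, with a median of -0.019. Ldha, the muscle form of lactate dehydrogenase, was at 17.9, 23.0 and 25.1 CPM in insB:9-23 libraries, against 15.3, 16.0 and 16.7 CPM in vehicle libraries. All insB:9-23 libraries lay above all vehicle libraries, by a log2 fold change of 0.46 ± 0.14, with an edgeR adjusted p of 0.88. Replicate 3, with the highest acinar share, was also its highest library, while the order of replicates 1 and 2 was the reverse of that of their acinar shares, and the part of acinar RNA in it was not tested. Acly, the ATP citrate lyase that makes cytosolic acetyl-CoA from citrate, was at 1168, 1302 and 1216 CPM in insB:9-23 libraries, against 1376, 1602 and 1602 CPM in vehicle libraries. It lay lower in every insB:9-23 library, by a log2 fold change of -0.31 ± 0.09, again with an edgeR adjusted p of 0.88. The groups did not overlap for 9 of the 50 (18%, where 13.5% of all genes did not), 2 higher (Ldha and Aco1) and 7 lower (Slc2a2, Tigar, G6pc2, Sdha, Got2, Slc25a12 and Acly). Slc2a2 and G6pc2 are also beta cell markers. The beta cell share of unscaled counts was lowest in insB:9-23 replicate 3, the library with the lowest scaling factor. In scaled CPM, Slc2a2 was lowest in insB:9-23 replicate 1, at 766.5, and G6pc2 in insB:9-23 replicate 3, at 266.4. The part of beta cell makeup in these values was not tested.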

How the data were processed

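RNA-seq of mouse islets was analysed from gene counts, 3 insB:9-23 and 3 vehicle libraries, grouped by sample title. Libraries were made with a stranded KAPA kit, per the labels' protocols. Each library's file holds raw counts of reads by Ensembl gene ID, as deposited by the authors. HISAT, featureCounts 1.5.0-p3, DESeq 1.8.3 and the build GRCm38 are named, per the submitters' processing notes, without the step each served. The sources used here do not give the strand setting, the annotation release or the handling of reads with several matches.

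The 44 members and all lists were chosen with earlier results of these data known. All members may be named. Values in every library are given for those whose groups do not overlap, with retrocopies or in isozyme families, and other pathway genes are named where called or at an unadjusted p below 0.05. Those named for separate groups or for a step in 1 library were chosen after their values were seen.

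The test was that of edgeR 4.0.16 under R 4.3.3 (filterByExpr, TMM, robust quasi-likelihood F test, group as the only term), with Benjamini-Hochberg adjustment over 17016 genes and a threshold of 0.05. Standard errors are the log2 fold change divided by the root of F. Total counts were 52052808 to 58880189 per library. Per-kilobase levels divide CPM by the merged exon length in GENCODE M21, which counts every annotated exon, so shares within a family depend on it. Retrocopies were found with BLAST 2.17.0. Isozyme shares were compared with exact permutation tests (scipy 1.17.1). The fit was checked on simulated data. Libraries of 1 group differed by a chi-square of 80.0 to 247 per degree of freedom, so none repeats another. Alternatives were other scalings, DESeq2 1.42.0, limma-voom (limma 3.58.1), other filters on low counts, a replicate block, each library left out, retrocopy counts added to the gene, shares with no length correction, and sums scaled by library totals.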

Additional observations from a re-analysis of the deposited data

How the results depend on the processing

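No member was called under any alternative, each scaling, test, filter, block and left-out library included. Over all genes, the 14 calls became 106 with DESeq2 (54 higher, 52 lower) and 0 with the replicate number as a block, and ranged from 16 to 26 when 1 library was left out (25 without insB:9-23 replicate 1, 26 without insB:9-23 replicate 3 and 23 without vehicle replicate 1). The cause was not tested. Deviations of same-numbered libraries from their group means correlated at -0.032, -0.069 and -0.005 over all genes tested, so no common pattern by replicate number was seen. With 3 libraries a group this cannot exclude pairing, and the labels give none. Single genes were low at the same number in both groups, Pgam1 in replicate 3 and Pdk2 in replicate 1. Scaled by library totals alone, the median log2 fold change of the members was -0.165 (8 above 0, 36 below), where that of all genes was -0.145. Under that scaling 11 members changed sign. In 2 of them, Pdhb (-0.064) and Idh3g (-0.059), the log2 fold change of the main fit had been larger than its standard error. Apart from these 2, 23 members moved by more than the spread between libraries, while under the other alternatives no member moved that far. The median otherwise stayed between -0.0324 and 0.00197. With 1 library left out, log2 fold changes spanned -0.69 to -0.0165 for Pdha1, -0.109 to 0.357 for Gpd2, -0.105 to 0.261 for Dlat and -0.528 to 0.103 for Pgam1. Members at an unadjusted p below 0.05 were Dld (library totals alone), Mpc2 (DESeq2, no filter on low counts), Hk2 (limma-voom), Gapdh (replicate block), Ldhb and Mpc1 (without insB:9-23 replicate 2), and Mpc2 and Dld (without insB:9-23 replicate 3), with no adjusted p among members under any alternative below 0.452 (edgeR, Dld). With 3 libraries a group, an exact test of a share cannot go below 0.1.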

Other observations

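Steps in a single library like those of Pdha1, Gpd2 and Dlat were also present among the further genes of central carbon metabolism, and these examples were chosen after their values were seen. Sdhd, a membrane anchor subunit of succinate dehydrogenase, was at 59.8, 69.7 and 18.1 CPM in insB:9-23 libraries, against 63.1, 58.8 and 63.2 CPM in vehicle libraries. Only insB:9-23 replicate 3 was low. Pdp1, the phosphatase that reactivates pyruvate dehydrogenase, was at 8.20, 12.2 and 8.94 CPM in insB:9-23 libraries, against 10.6, 9.28 and 0.412 CPM in vehicle libraries. Its vehicle replicate 3 value rests on 22 counts, where the other 5 libraries held 409 to 683. In that library Pdha1, whose product is the substrate of this phosphatase, was at its highest, and Gpd2 was at its lowest. A relation between these steps was not tested.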
